A study of Sus scrofa with 9 samples.

Results

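Inorganic ion carriers and ATPase pumps were followed across 3 kinds of pig esophageal sample. The group holds the genes whose symbol names a sodium, calcium, copper, proton-potassium or vacuolar proton pump, or a carrier of bicarbonate, chloride, protons, calcium, phosphate, sulfate, zinc, copper, iron or magnesium (solute carrier families such as SLC4, SLC9, SLC26, SLC30 and SLC39). SLC12A2, SLC9A2, SLC4A4 and ATP1B1 were left out of it by rule. Of 12217 genes tested, 85 were members, each represented by the single-symbol probe set with the highest mean over the 9 arrays. A symbol match also takes in proteins that carry no ion themselves, among them the scaffolds SLC9A3R1 and SLC9A3R2 and the SLC4A1-binding adaptor SLC4A1AP. Another 46 genes of these families, including ATP2A2, SLC4A2 and SLC30A1, had no such probe set and are not analysed here.

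Each total RNA sample was measured on an Affymetrix PorGene 1.0 ST array of its own. The groups were 3 arrays of spheroids grown in vitro from esophageal submucosal glands (ESMG) of pigs 1, 2 and 3, in growth factor reduced Matrigel with Advanced DMEM/F12, B27, N2, 10 mM HEPES and 50 ng/ml recombinant human EGF; 3 arrays of ESMG tissue; and 3 arrays of the squamous tissue that lies over the glands. The ESMG and squamous arrays came from the same animals (pigs 37, 39 and 40), labelled as control pig esophagus; no age, sex or strain is given. The labels do not say how pigs 1, 2 and 3 relate to them. Levels are log2 RMA values, on which 1 unit stands for a 2-fold change. A gene was called where its adjusted p in limma was under 0.05 and its fold at least 2.

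These proteins set the ion content of the cell and of its compartments. The sodium pump builds the gradient that drives most sodium-coupled carriers, the calcium pumps return calcium to the endoplasmic reticulum, the Golgi or the outside, and the vacuolar pump acidifies lysosomes, endosomes and Golgi vesicles. In gland epithelium, anion exchangers and sodium-coupled carriers feed fluid and bicarbonate secretion, and calcium stores trigger exocytosis. Zinc carriers run in opposite directions, with the SLC30 family (ZnT) moving zinc out of the cytosol and the SLC39 family (ZIP) moving it in.

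Marker genes were read beside the tissue labels. Their lists were chosen with earlier results of these data known, so they are no independent check of the labels. Of 12 measured gland markers, 11 were called higher in ESMG than in squamous tissue, and the log2 of their summed level was 14.17 to 14.34 in spheroids, 14.93 to 15.61 in ESMG and 12.16 to 12.66 in squamous tissue, lowest among ESMG arrays in pig 40. The 5 measured squamous markers summed to 13.85 to 14.01 in spheroids, 14.10 to 14.67 in ESMG and 14.78 to 14.93 in squamous tissue, and their mean log2 level was 9.25 to 9.54 in spheroids, 11.19 to 11.90 in ESMG and 12.03 to 12.26 in squamous tissue. None was called between ESMG and squamous tissue, whereas 3 were called lower in spheroids than in ESMG (median log2 difference over the 5 markers -2.89) and 4 lower than in squamous tissue (-3.65), KRT15 by 7.39-fold and 12.6-fold. Fibroblast markers summed to 10.98 to 11.96 in spheroids, against 14.98 to 15.34 in ESMG and 15.04 to 15.30 in squamous tissue, and all 11 were called lower in spheroids in both comparisons. In samples of mixed cells like these, fewer cells of a type and less RNA per cell cannot be told apart.

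Glands differed from the lining above them in 8 of the 85 members. ESMG had higher levels of 7 members: an endoplasmic reticulum calcium pump (ATP2A3), a Golgi calcium pump (ATP2C2), the zinc importers SLC39A8 and SLC39A7, the copper carrier SLC31A2, the Golgi sodium-proton exchanger SLC9A7 and the anion exchanger SLC26A7. A single member was lower, the vacuolar pump subunit ATP6V1B1. Over all genes tested, 3.06% were called in this comparison (2.65% higher and 0.409% lower), and among the members 9.41% were (8.24% higher and 1.18% lower). Without the fold minimum 9 members were higher and 4 lower, beside 4.4% and 1.65% of all genes (6.05% together). The ESMG and squamous arrays did not overlap for 30 members (35.3%), beside 21.6% of all genes. The median log2 difference over the members was -0.02, beside -0.06 over all genes.

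**Figure D1:**
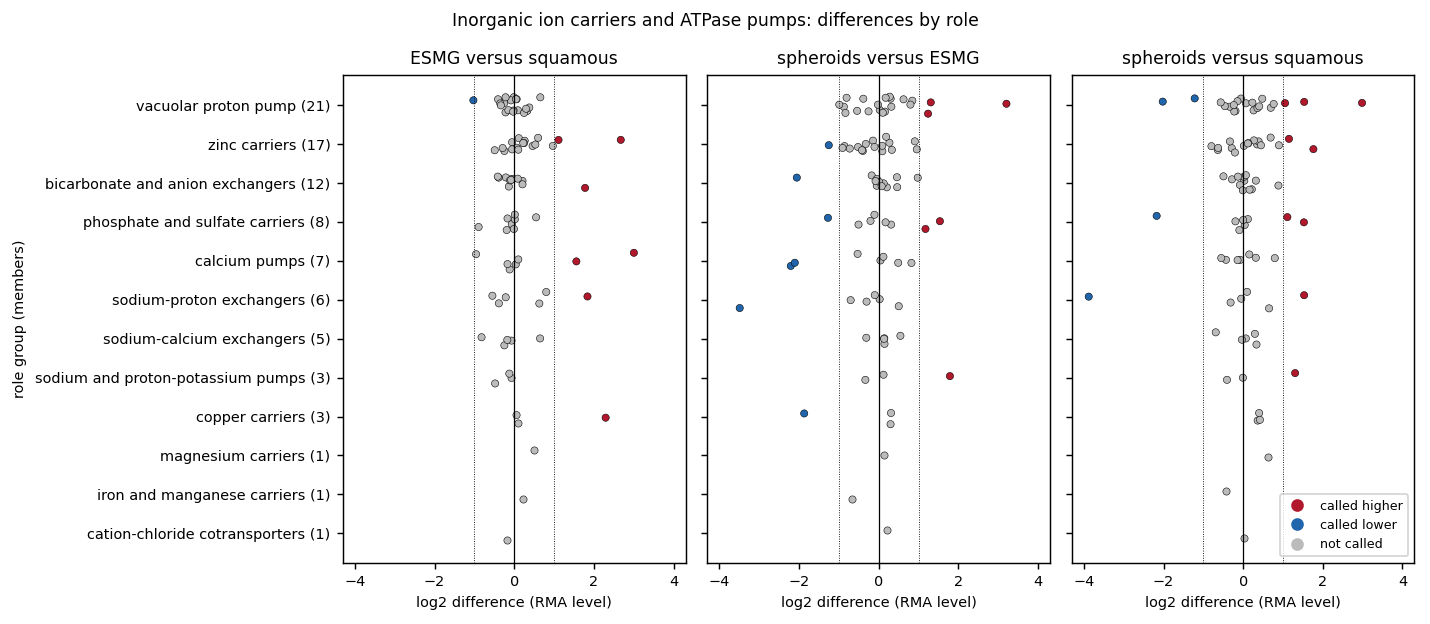
Each point is 1 of the 85 members, placed by its log2 difference in RMA level (x axis, in log2 units) and by role group (y axis, number of members in brackets), for ESMG versus squamous tissue, spheroids versus ESMG and spheroids versus squamous tissue; vertical position within a group is spread only for legibility, and dotted lines mark a 2-fold difference. Called members, in red and blue, number 8, 13 and 13 and fall in most of the larger role groups, while the other members lie between -1 and 1.

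Calcium pumps held the largest difference of any member between glands and lining. ATP2A3, which refills the endoplasmic reticulum with calcium outside muscle, lay at 10.51, 10.50 and 9.84 in ESMG of pigs 37, 39 and 40, against 7.30, 7.42 and 7.12 in squamous tissue. The lowest ESMG array stood over 2 log2 units above the highest squamous array. The means were 10.28 ± 0.39 in ESMG and 7.28 ± 0.15 in squamous tissue (± SD of 3 arrays, as throughout), an 8.01-fold difference (log2 3.00, SE 0.19, adjusted p = 9.98e-06 in limma). ATP2C2, a Golgi pump for calcium and manganese found in secretory epithelia, lay at 9.33, 9.01 and 8.38 in ESMG and at 6.90, 7.46 and 7.69 in squamous tissue. The groups did not overlap, although the ESMG and squamous arrays of pig 40 were the closest (2.94-fold, log2 1.56, SE 0.24, adjusted p = 0.00295). Its paralogue ATP2C1, the Golgi pump of most cells, showed no such step, with a mean of 10.30 ± 0.17 in ESMG against 10.20 ± 0.19 in squamous tissue (log2 0.10, SE 0.17, adjusted p = 0.820). ATP2B4, a pump of the plasma membrane, ran the other way at 8.90 ± 0.37 in ESMG and 9.86 ± 0.19 in squamous tissue, with a log2 difference of -0.96 (SE 0.19, adjusted p = 0.0133) that missed the 2-fold minimum; it is named here after its values were seen.

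Zinc carriers contributed 2 of the 7 higher members, both of the importing SLC39 family. SLC39A8, which brings zinc and manganese into cells, lay at 11.07, 11.31 and 10.55 in ESMG, against 8.17, 7.92 and 8.82 in squamous tissue. All ESMG arrays were above all squamous arrays, by 6.38-fold on average (log2 2.67, SE 0.24, adjusted p = 7.59e-05). SLC39A7, which releases zinc from the endoplasmic reticulum and Golgi into the cytosol, lay at 9.49, 9.35 and 8.89 in ESMG, against 8.14, 7.94 and 8.31 in squamous tissue (2.16-fold, log2 1.11, SE 0.17, adjusted p = 0.0028). Its call ended without the ESMG array of pig 37, where the log2 difference was 0.99. The 11 SLC39 members had a median log2 difference of 0.22 and the 6 SLC30 members one of 0.19. SLC39A14, a zinc, iron and manganese importer named after its values were seen, had a log2 difference of 0.97 (adjusted p = 0.0235) and passed the fold minimum in 4 of the fits that left out an array. SLC30A7, which loads zinc into the Golgi, averaged 10.62 ± 0.34 in ESMG against 10.10 ± 0.14 in squamous tissue (adjusted p = 0.128).

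**Figure D2:**
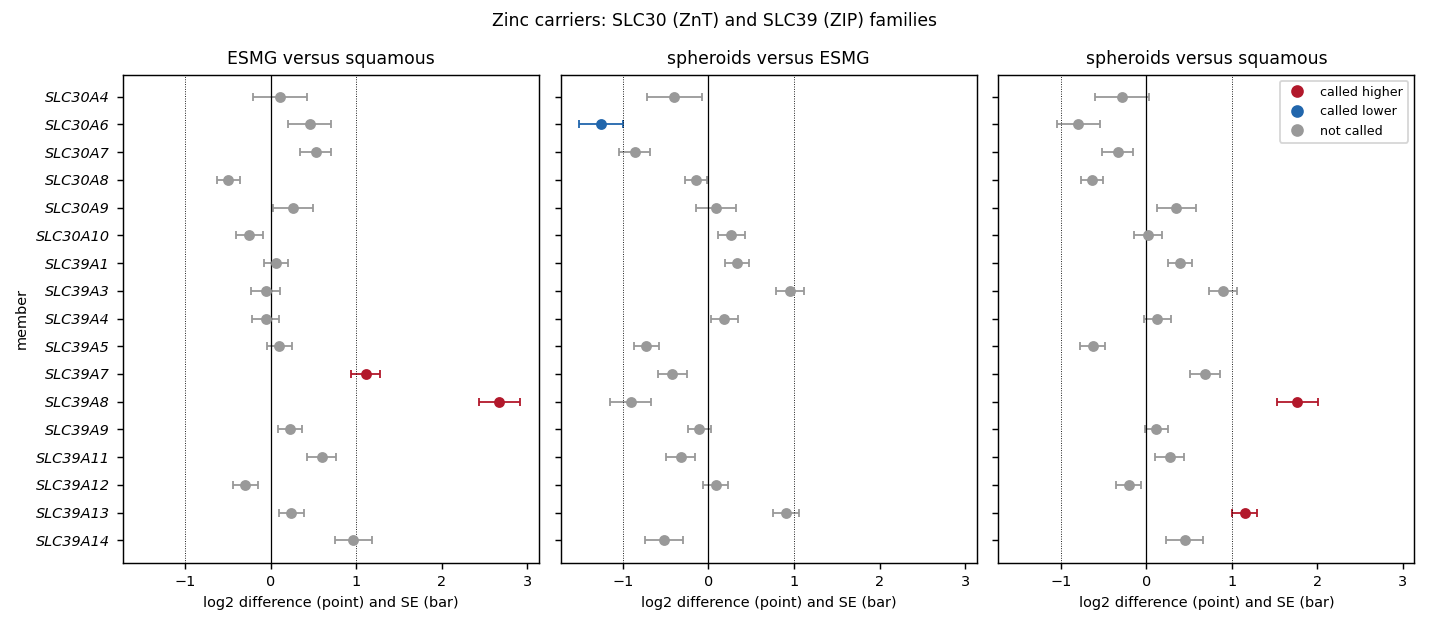
Log2 difference in RMA level (points, x axis in log2 units) with its standard error (bars) for the 17 zinc carriers, SLC30 members above SLC39 members, in the 3 comparisons; dotted lines mark a 2-fold difference. SLC39A8 stands farthest to the right in ESMG versus squamous tissue (2.67) and in spheroids versus squamous tissue (1.76), and SLC30A6 is the only zinc carrier called between spheroids and ESMG (-1.25).

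The remaining gland-high members were carriers of copper, protons and anions. SLC31A2, a copper carrier of endosomes and lysosomes, lay at 8.78, 10.07 and 8.95 in ESMG, against 6.64, 7.24 and 7.05 in squamous tissue (4.90-fold, log2 2.29, SE 0.29, adjusted p = 0.000671). The ESMG array of pig 39 was the highest and set the wide spread within ESMG (SD 0.70). The copper pump ATP7A averaged 8.55 ± 0.10 in ESMG against 8.50 ± 0.25 in squamous tissue (adjusted p = 0.906). SLC9A7, a sodium-proton exchanger of the trans-Golgi network, lay at 7.88, 7.90 and 7.39 in ESMG, against 5.97, 6.05 and 5.65 in squamous tissue. Within each tissue the pig 40 array was lowest, and the groups lay more than 1 log2 unit apart (3.57-fold, log2 1.84, SE 0.17, adjusted p = 9.93e-05). SLC26A7, a chloride and bicarbonate exchanger known from kidney, stomach and thyroid, lay at 6.24, 7.22 and 5.90 in ESMG, against 4.61, 4.87 and 4.55 in squamous tissue (3.43-fold, log2 1.78, SE 0.28, adjusted p = 0.00274). Each squamous value was below its array's lower quartile (5.36 to 5.65 over the 9 arrays), and this fold rests on RMA values near the floor. SLC4A7, the bicarbonate carrier with the highest mean, averaged 9.77 ± 0.10 in ESMG against 9.68 ± 0.35 in squamous tissue (adjusted p = 0.870).

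**Figure D3:**
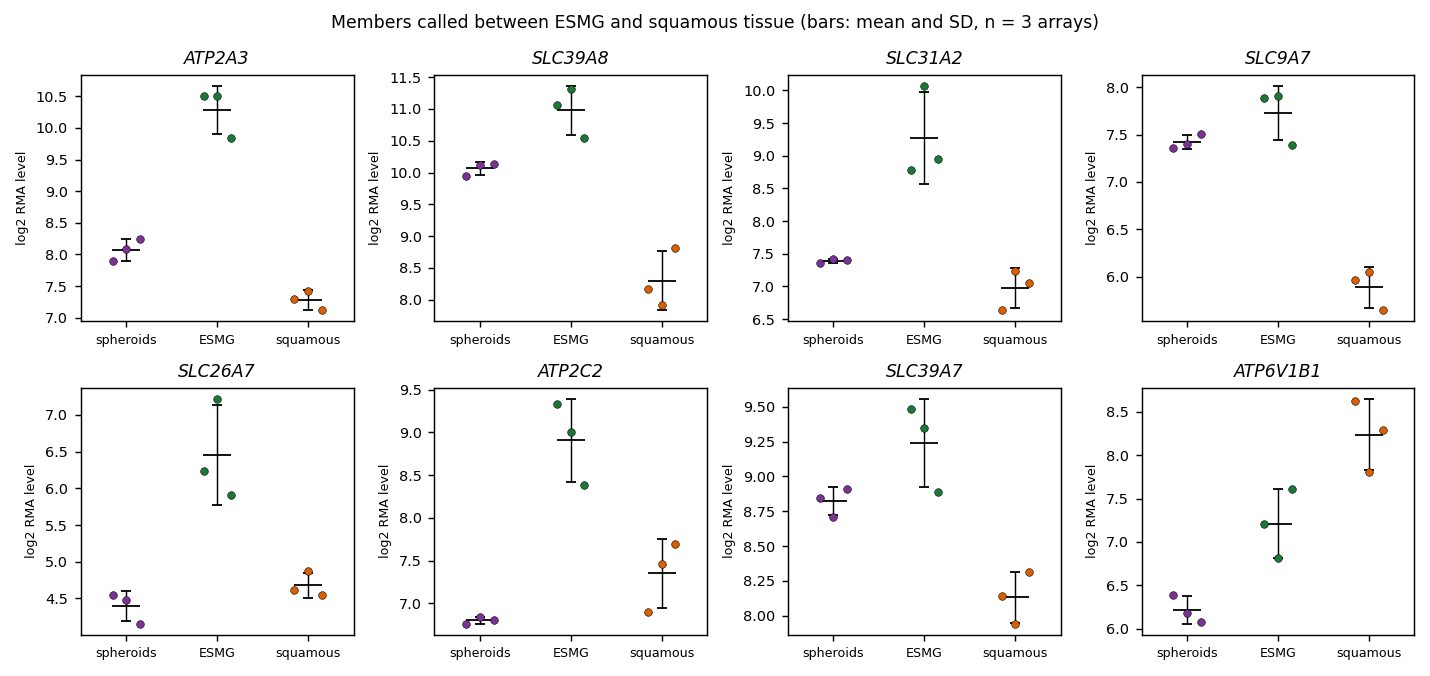
Log2 RMA level (y axis, its range set per panel) of the 8 members called between ESMG and squamous tissue, in spheroids, ESMG and squamous tissue; points are arrays, and bars the mean and SD of 3. The ESMG points lie above the squamous points in 7 panels and below them for ATP6V1B1; the spheroid points of SLC9A7 and SLC39A8 stay above the squamous ones, and those of ATP2C2 and SLC26A7 lie at or under them.

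ATP6V1B1, the B1 subunit of the vacuolar pump known from acid-secreting cells of kidney and inner ear, was the member called lower in glands. It lay at 7.20, 6.82 and 7.61 in ESMG, against 8.62, 7.81 and 8.29 in squamous tissue, a log2 difference of -1.03 (SE 0.23, adjusted p = 0.0234). The gap between the nearest arrays was small, and the call ended without the ESMG array of pig 37 (adjusted p = 0.0760) or 39 (0.0998) and without the squamous array of pig 37 (0.0907) or 40 (0.0830). It also ended after cyclic loess (-0.98) and when spheroid arrays were left out of the model (adjusted p = 0.0560). The count of members called lower was 0 without the ESMG array of pig 37 or 39 or the squamous array of pig 37, 2 without the squamous array of pig 39 and 3 without the ESMG array of pig 40. In the fits that gave 0, 7 to 9 members were lower at an unadjusted p under 0.05.

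The partner genes of these carriers and pumps moved at few points between the tissues, where 2.65% of all genes were called higher and 0.409% lower in ESMG. Of 12 measured regulators of cotransporters and exchangers, 2 were higher in ESMG: TESC, a calcium-binding protein (4.78-fold, log2 2.26, adjusted p = 0.00015), and STK39, a kinase that switches on chloride uptake cotransporters (2.03-fold, log2 1.02, adjusted p = 0.0147). Of 8 regulators of sodium and calcium pumps, PLN, the calcium pump inhibitor of smooth and cardiac muscle, was lower (log2 -1.38, adjusted p = 0.00139). Of 18 genes of calcium entry and stores, STIM2, a sensor of store calcium, was higher (log2 1.29, adjusted p = 0.0108) and CASQ2, a calcium buffer of muscle stores, lower (log2 -1.73, adjusted p = 0.0217). That list also holds the magnesium genes TRPM6 and CNNM2, which were not called here. Smooth muscle markers, PLN among them, were lower in 3 of 11, with a log2 summed level of 14.30 to 14.90 in ESMG and 15.05 to 15.34 in squamous tissue.

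Of the genes left out by rule, SLC12A2, ATP1B1 and SLC9A2 were called higher in ESMG (log2 3.25, 1.88 and 1.28) and again in spheroids versus squamous tissue (2.49, 1.85 and 2.34). SLC4A4 was called higher in spheroids than in ESMG (1.33) and squamous tissue (1.34). SLC9A2 was also called higher in spheroids than in ESMG (1.06), while ATP1B1 (-0.03) and SLC12A2 (-0.76) were not called in that comparison.

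Marker levels of other cells were set beside the gland-high members. The ESMG array of pig 40 was the lowest ESMG array for 6 of the 7 and for the gland markers. By log2 summed level it was also the lowest for leukocyte markers (12.27). It was the highest for smooth muscle (14.90), skeletal muscle (10.66), fibroblast (15.34), nerve and glia (9.27) and squamous markers (14.67), and in between for endothelium (11.80). Leukocyte markers were called higher in ESMG in 1 of 14. Their log2 summed level was 13.34, 12.33 and 12.27 in ESMG of pigs 37, 39 and 40, against 12.47, 11.44 and 11.23 in squamous tissue. It was higher in ESMG than in squamous tissue in each of these pigs. Without the ESMG array of pig 37 all of the gland-high members but SLC39A7 were still called. That fit keeps the leukocyte difference of pigs 39 and 40, and it says nothing on the part of leukocytes. Over the 19 alternative settings for this comparison the log2 difference of ATP2A3 stayed between 2.89 and 3.22, that of SLC39A8 between 2.48 and 2.93, and that of SLC9A7 between 1.72 and 2.00. The part of the other cell types in these differences was not tested.

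The spheroid comparisons asked how gland-derived spheroids differ from the gland tissue and from the lining. In spheroids versus ESMG 13 members were called, 6 higher and 7 lower, and in spheroids versus squamous tissue 13 were called, 9 higher and 4 lower. Both shares, 15.3% each, lay near the background of 16.9% and 16.7% of all genes, so the number of calls is not a result about these members. In detail, 7.06% were higher and 8.24% lower against ESMG (all genes 7.99% and 8.91%), and 10.6% higher and 4.71% lower against squamous tissue (all genes 8.61% and 8.05%). Without the fold minimum 18 members were higher and 18 lower against ESMG (all genes 23.9% and 17.6%, together 41.5%), and 20 higher and 9 lower against squamous tissue (all genes 23.6% and 17.4%, together 40.9%). Spheroid arrays did not overlap those of ESMG for 45 members (52.9%, all genes 51.3%) or those of squamous tissue for 43 (50.6%, all genes 50.4%). Both comparisons use the same spheroid arrays. Across them, 6 members were higher in spheroids than in both tissues, and 2 were lower. The share of all genes called in both comparisons was not computed, so these counts are not read as a result about the members.

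The 7 gland-high members differed in how their spheroid levels stood to those of the tissues. They were picked for high levels on the same ESMG arrays, and this choice by itself favours lower levels in spheroids than in ESMG. ATP2A3, ATP2C2, SLC26A7 and SLC31A2 were called lower in spheroids than in ESMG. Of 12 gland markers, 7 were called lower and 1 higher in spheroids than in ESMG (median log2 difference -2.45). The mucin MUC19 was 60.4-fold, the peroxidase LPO 50.6-fold and the immunoglobulin receptor PIGR 9.45-fold lower. The keratin KRT19 was 3.65-fold higher, and AGR2, KRT8, KRT18 and SOX9 were not called. The part of the gland cells in the lower levels of ATP2A3, ATP2C2, SLC26A7 and SLC31A2 was not tested. ATP2A3 lay at 7.89, 8.09 and 8.24 in the spheroids of pigs 1, 2 and 3, 4.62-fold under ESMG (log2 -2.21, SE 0.19, adjusted p = 4.92e-06) and still above squamous tissue by 0.79 (adjusted p = 0.00591), under the fold minimum. ATP2C2 lay at 6.76, 6.84 and 6.80 in spheroids, below every squamous array as well as every ESMG array (log2 -2.11 against ESMG, adjusted p = 3.97e-05; -0.55 against squamous tissue, adjusted p = 0.0968). SLC26A7 lay at 4.55, 4.48 and 4.16 in spheroids, near the floor like the squamous arrays (log2 -2.06 against ESMG, adjusted p = 0.000113).

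SLC31A2 lay at 7.36, 7.41 and 7.41 in spheroids, between the tissues (log2 -1.87 against ESMG, adjusted p = 0.000285; 0.42 against squamous tissue, adjusted p = 0.281). By contrast, SLC9A7 stayed high, at 7.36, 7.40 and 7.50 in spheroids. These arrays overlapped with ESMG (log2 -0.31, SE 0.17, adjusted p = 0.178) and lay above squamous tissue (log2 1.53, SE 0.17, adjusted p = 2.68e-05). SLC39A8 was intermediate, at 9.95, 10.12 and 10.13, with log2 differences of -0.91 from ESMG (adjusted p = 0.00933) and 1.76 from squamous tissue (adjusted p = 0.00012). SLC39A7 lay at 8.84, 8.71 and 8.91 in spheroids, with log2 differences of -0.42 from ESMG (adjusted p = 0.0731) and 0.69 from squamous tissue (adjusted p = 0.00726). The SLC39A8 fall passed the fold minimum without the ESMG array of pig 40 (-1.12), after quantile normalization (-1.02), after cyclic loess (-1.09) and with array weights (-1.11).

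The vacuolar proton pump joins a cytosolic V1 sector, which splits ATP, to a membrane V0 sector, which passes protons, and several subunits exist as alternative isoforms encoded by paralogues. Of its 19 measured V1 and V0 subunits, 3 were higher and none was called lower against ESMG in limma, where 5 were lower at an unadjusted p under 0.05, and 3 were higher and 2 lower against squamous tissue. Over all genes, 7.99% were called higher and 8.91% lower against ESMG, and 8.61% and 8.05% against squamous tissue, so 3 to 5 calls among 19 subunits are not read as a result about the pump as a whole. Without the fold minimum, 6 were higher and 5 lower against ESMG, and 6 higher and 3 lower against squamous tissue, at an adjusted p under 0.05 (all genes 23.9% and 17.6%, and 23.6% and 17.4%).

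ATP6V1C2, the C2 isoform of the V1 subunit that helps join the sectors, was the largest rise of any member. It lay at 7.48, 7.94 and 8.59 in spheroids, against 4.78, 4.62 and 4.995 in ESMG and 4.68, 5.27 and 5.10 in squamous tissue. These tissue levels were all below their array's lower quartile, near the floor: 9.23-fold against ESMG (log2 3.21, SE 0.25, adjusted p = 2.48e-06) and 7.92-fold against squamous tissue (log2 2.99, SE 0.25, adjusted p = 3.64e-06). The paralogue ATP6V1C1, named after its values were seen, did not rise with it: it lay at 8.33, 7.93 and 8.50 in spheroids, against 9.41, 9.47 and 8.40 in ESMG and 8.97, 8.55 and 8.62 in squamous tissue. Its log2 difference was -0.84 against ESMG (SE 0.27, adjusted p = 0.0254), with pig 40 overlapping the spheroids, and -0.46 against squamous tissue (adjusted p = 0.204). ATP6V1C1 was called lower than in ESMG without the ESMG array of pig 40 and after cyclic loess.

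ATP6V0C, which builds the proton-carrying ring of V0, lay at 10.31, 10.41 and 10.17 in spheroids, against 8.96, 8.86 and 9.15 in ESMG and 9.16, 9.48 and 9.10 in squamous tissue. Spheroids were 2.47-fold above ESMG (log2 1.31, SE 0.15, adjusted p = 3.49e-05) and 2.07-fold above squamous tissue (log2 1.05, adjusted p = 0.000167). The second difference dropped under 2-fold after quantile normalization (0.88), after cyclic loess (0.85) and without the squamous array of pig 40 (0.98) or the spheroid array of pig 2 (0.996). ATP6V1G1, a subunit of the peripheral stalk, lay at 10.23, 10.57 and 10.22 in spheroids, against 9.10, 9.15 and 9.05 in ESMG and 8.73, 8.82 and 8.87 in squamous tissue (log2 1.24, adjusted p = 2.79e-05, and 1.53, adjusted p = 5.25e-06). A second ATP6V1G1 probe set gave 1.20 and 1.18. ATP6V1E1, ATP6V1F and ATP6V1H rose by less than the fold minimum, by 0.84, 0.80 and 0.62 against ESMG (adjusted p from 0.00092 to 0.00391), and were named after their values were seen.

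On the falling side, ATP6V1B1 lay at 6.39, 6.18 and 6.08 in spheroids, 4.05-fold under squamous tissue (log2 -2.02, SE 0.23, adjusted p = 3.61e-05) and, by a log2 difference of -0.99 that just missed the fold minimum, under ESMG (adjusted p = 0.00479). The 3 groups did not overlap, with spheroids lowest and squamous tissue highest. Its paralogue ATP6V1B2, named after its values were seen, had log2 differences of -0.39 from ESMG and -0.14 from squamous tissue (adjusted p = 0.117 and 0.596). ATP6V0A1, an isoform of the large membrane subunit, lay at 9.27, 8.59 and 9.24 in spheroids, against 9.60, 9.88 and 10.04 in ESMG and 10.16, 10.17 and 10.42 in squamous tissue. It was called lower than in squamous tissue (log2 -1.22, SE 0.20, adjusted p = 0.000418), but its other probe set gave -0.42, and the mean of the pair -0.82. The call also ended without the spheroid array of pig 2 and with array weights. ATP6V0D1, the vacuolar pump member with the highest mean, averaged 10.56 ± 0.13 in spheroids against 10.26 ± 0.10 in ESMG (adjusted p = 0.112).

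**Figure D4:**
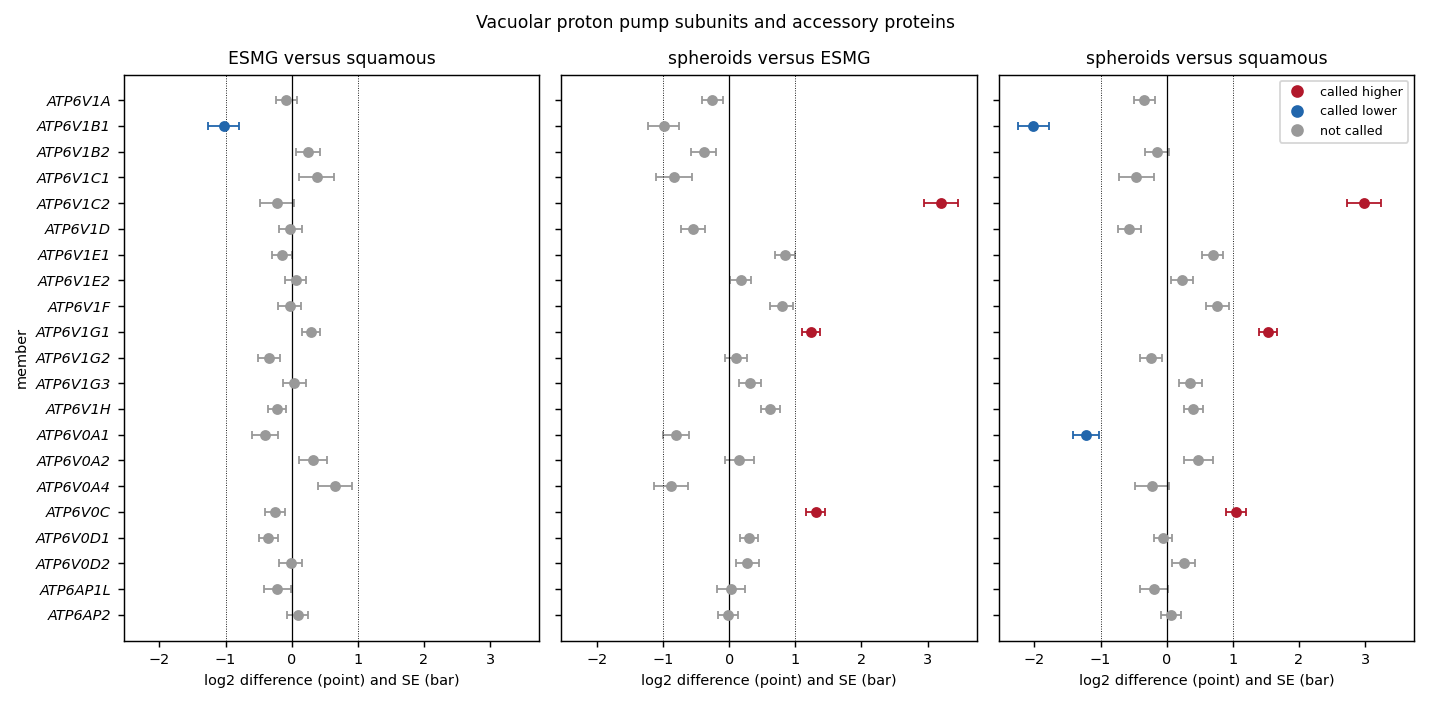
Log2 difference in RMA level (points, x axis in log2 units) with its standard error (bars) for the 21 vacuolar proton pump members, V1 subunits first, then V0 subunits, then accessory proteins, in the 3 comparisons; dotted lines mark a 2-fold difference. ATP6V1C2 stands alone at 3.21 against ESMG and 2.99 against squamous tissue, ATP6V1G1 and ATP6V0C pass 1 in both spheroid comparisons, and ATP6V1B1 lies at -1.03, -0.99 and -2.02.

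Sodium-proton exchange in endosomes gave the largest fall of any member. SLC9A9, an exchanger of recycling endosomes, lay at 4.81, 4.62 and 5.46 in spheroids, against 8.48, 8.61 and 8.28 in ESMG and 8.74, 8.88 and 8.91 in squamous tissue. The tissues were tightly grouped, and each spheroid array lay at least 2 log2 units under them. The fall was 11.2-fold against ESMG (log2 -3.49, SE 0.20, adjusted p = 2.13e-07) and 14.7-fold against squamous tissue (log2 -3.88, SE 0.20, adjusted p = 9.49e-08). The spheroid values of pigs 1 and 2 lay below their array's lower quartile and that of pig 3 just above it (5.36), and these folds rest on RMA values near the floor. In these comparisons leukocyte markers were called lower in 8 of 14 and 5 of 14, with 2 higher against squamous tissue, and endothelial markers in 7 of 9 each. Their log2 summed levels were 11.07 to 11.31 in spheroids, 12.27 to 13.34 in ESMG and 11.23 to 12.47 in squamous tissue for leukocytes, and 9.87 to 10.12, 11.76 to 11.82 and 11.59 to 11.92 for endothelium. Smooth muscle markers were called lower in 7 and 10 of 11, at 11.80 to 12.06 in spheroids. The part of these cells, and of the fibroblasts above, in the falls of SLC9A9 and the other members was not tested. The scaffold SLC9A3R1, which anchors exchangers at the apical membrane, differed by 0.50 from ESMG (adjusted p = 0.0163) and by -0.05 from squamous tissue (adjusted p = 0.836).

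Among 8 phosphate and sulfate carriers, 3 were called in each spheroid comparison (all genes 16.9% against ESMG and 16.7% against squamous tissue), and whether the family differs from other genes was not tested. SLC20A1, the sodium-phosphate carrier of most cells, lay at 10.23, 10.26 and 10.49 in spheroids, against 8.87, 8.45 and 9.06 in ESMG and 8.76, 8.25 and 9.40 in squamous tissue. It was 2.90-fold above ESMG (log2 1.54, SE 0.26, adjusted p = 0.000542) and 2.88-fold above squamous tissue (log2 1.53, SE 0.26, adjusted p = 0.000567), while the squamous arrays alone spread over more than 1 log2 unit. SLC13A4, a sodium-sulfate carrier, lay at 7.98, 7.36 and 7.78 in spheroids, against 6.61, 6.41 and 6.58 in ESMG and 6.60, 6.78 and 6.41 in squamous tissue (log2 1.17, adjusted p = 0.000237, and 1.11, adjusted p = 0.000343). The second call ended without the spheroid array of pig 1 (0.98). SLC34A3, a phosphate carrier known from kidney tubules, lay at 7.70, 7.55 and 7.30 in spheroids, against 8.74, 8.69 and 8.95 in ESMG and 9.63, 10.06 and 9.37 in squamous tissue. No array of 1 group overlapped another group. It was called lower in spheroids against ESMG (2.42-fold, log2 -1.28, SE 0.19, adjusted p = 0.000207) and against squamous tissue (4.51-fold, log2 -2.17, SE 0.19, adjusted p = 3.77e-06). Between the tissues its log2 difference was -0.90 (adjusted p = 0.0147), under the fold minimum.

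ATP1B3, a beta subunit that brings the sodium pump to the membrane, lay at 11.48, 11.65 and 11.49 in spheroids, against 9.82, 9.59 and 9.85 in ESMG and 10.35, 9.95 and 10.41 in squamous tissue. Spheroids were 3.45-fold above ESMG (log2 1.79, SE 0.15, adjusted p = 4.72e-06) and 2.47-fold above squamous tissue (log2 1.30, SE 0.15, adjusted p = 4.41e-05), with no overlap. ATP1B2 and ATP1B4, of the same family and named after their values were seen, had log2 differences between -0.41 and 0.12 in the spheroid comparisons. ATP1B4 was below the lower quartile on all 9 arrays.

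Zinc carriers split by member. SLC30A6, which helps load zinc into the Golgi, lay at 9.21, 8.73 and 9.83 in spheroids, against 10.73, 10.65 and 10.14 in ESMG (2.39-fold lower, log2 -1.25, SE 0.25, adjusted p = 0.0018). The spheroid arrays spread over more than 1 log2 unit, and without that of pig 2 the log2 difference was -0.99, just under the fold minimum. SLC30A7 differed from ESMG by -0.86 (adjusted p = 0.00246), SLC39A3 by 0.96 (adjusted p = 0.000713) and SLC39A13 by 0.91 (adjusted p = 0.000446), all under the fold minimum. SLC30A7 passed it after cyclic loess (-1.03), with array weights (-1.03) and without the ESMG array of pig 40 (-1.05), and SLC39A3, named after its values were seen, was called when the ESMG array of pig 37 or the spheroid array of pig 1 was left out. SLC39A13, which moves zinc out of Golgi vesicles, lay at 8.87, 8.74 and 9.02 in spheroids, against 7.55, 7.99 and 7.65 in squamous tissue (2.22-fold, log2 1.15, SE 0.15, adjusted p = 8.03e-05). That call ended after quantile normalization (0.99) and cyclic loess (0.93).

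**Figure D5:**
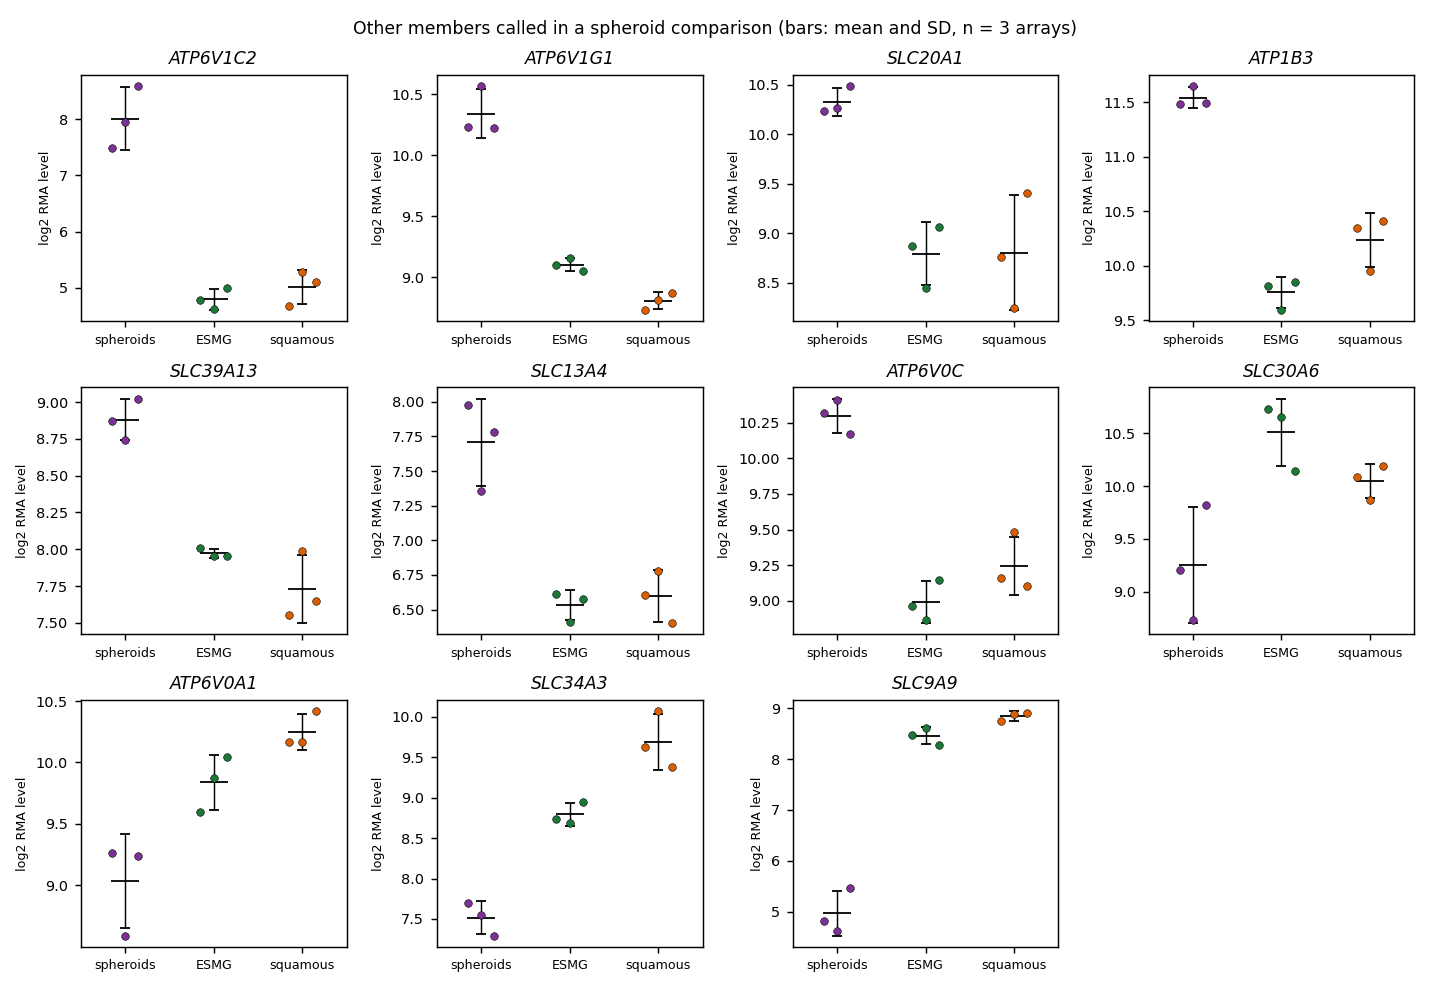
Log2 RMA level (y axis, its range set per panel) of the 11 members that were called in a spheroid comparison and not between the tissues, in spheroids, ESMG and squamous tissue; points are arrays, and bars the mean and SD of 3. Spheroid points lie above all tissue points for ATP6V1C2, ATP6V1G1, SLC20A1, ATP1B3, SLC39A13, SLC13A4 and ATP6V0C, and below them for SLC30A6, ATP6V0A1, SLC34A3 and SLC9A9.

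Of the 85 members, 66 were not called in any comparison, with log2 differences from -0.96 to 0.98. Of these, 10 were below the lower quartile on all 9 arrays: ATP1B4, ATP6V0D2, ATP6V1E2, SLC13A1, SLC24A4, SLC26A5, SLC26A8, SLC34A1, SLC39A12 and SLC4A10. Without detection calls, such levels do not show that a gene was off. The shares of all genes called in no comparison, or below the lower quartile on all arrays, were not computed. The counts of 66 and 10 are therefore not read as a result about the members. SLC26A6, an anion exchanger named after its values were seen, came nearest to a call in spheroids versus ESMG, at 7.48, 8.23 and 7.38 in spheroids against 6.92, 6.49 and 6.75 in ESMG (log2 0.98, SE 0.22, adjusted p = 0.00321), and was called when the ESMG array of pig 37 or the spheroid array of pig 1 or 3 was left out. The leading members of the small role groups were SLC8A2 and SLC12A5, carriers known from neurons, the macrophage metal carrier SLC11A1 and the magnesium carrier SLC41A3. SLC8A2 and SLC12A5 had log2 differences between -0.18 and 0.21 in the 3 comparisons (adjusted p from 0.277 to 0.903). Another SLC8A2 probe set, at a lower level, gave -0.34 between ESMG and squamous tissue, 0.68 between spheroids and ESMG and 0.34 between spheroids and squamous tissue. SLC11A1 averaged 5.85 ± 0.14 in spheroids against 6.51 ± 0.33 in ESMG (log2 -0.66, adjusted p = 0.00999). SLC41A3 averaged 7.70 ± 0.24 in spheroids against 7.08 ± 0.10 in squamous tissue (log2 0.61, adjusted p = 0.00741).

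The partner genes of calcium handling moved in spheroids in both directions. Of 18 measured genes of calcium entry and stores, 6 were higher and 4 lower against ESMG, and 5 higher and 6 lower against squamous tissue. These counts take in the magnesium genes TRPM6 and CNNM2, which the list also holds and which were both lower in each comparison. Over all genes, 7.99% were called higher and 8.91% lower against ESMG, and 8.61% and 8.05% against squamous tissue. ITPR3, a release channel of the endoplasmic reticulum, averaged 11.17 ± 0.27 in spheroids against 8.72 ± 0.18 in ESMG (log2 2.45, SE 0.16, adjusted p = 6.91e-07), while its paralogue ITPR2 had a log2 difference of -1.52 (adjusted p = 2.97e-05). The entry channels ORAI1, ORAI2 and ORAI3 had log2 differences of 1.43, 1.63 and 1.28 from ESMG, their sensor STIM1 one of 1.02 and the mitochondrial uniporter MCU one of 1.17. RYR2, the release channel of heart and smooth muscle, was lower by a log2 difference of -2.09, as were the magnesium genes TRPM6 (-1.27) and CNNM2 (-1.21). Among 8 pump regulators, SLN, a small inhibitor of endoplasmic reticulum calcium pumps known from muscle, was 11.1-fold higher (log2 3.47, SE 0.49, adjusted p = 0.000167) and PLN lower (log2 -1.84, adjusted p = 1.86e-05). TESC and STK39 were lower in spheroids than in ESMG (log2 -1.58 and -1.18), and the membrane linker EZR was higher (1.08). Of 19 genes of vacuolar pump assembly and lysosomes, DMXL2, which helps rejoin the pump's sectors, and LAMP1, a lysosome membrane protein, were higher against ESMG (1.57 and 1.11), and OXR1 and MITF lower (-1.11 and -1.02). The few calls among the 8 pump regulators and the 19 assembly genes are not read as a result about those lists. Whether any of these partner lists differs from other genes was not tested.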

How the data were processed

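The authors ran RMA at gene level in Affymetrix Expression Console and deposited log2 values, per the labels. The submitters' processing notes also name Transcriptome Analysis Console 3.0, without a role. RMA normalizes between arrays and compresses low values. No genome build is given in the sources used here, so no coordinates are printed. Of 27558 probe sets, 13157 had 1 gene symbol, and 12841 of these were matched by gene number to RefSeq (Sscrofa11.1), which changed 7 symbols. limma 3.58.1 (R 4.3.3, statmod 1.5.0) was fitted to all 9 arrays and 12217 genes, with Benjamini-Hochberg adjusted p-values over all genes and 6 residual degrees of freedom. The fit was tested on simulated data. Array medians were 6.84 to 7.04, and precision is limited by 3 arrays per group. Tables and plots used Python 3.11.15, pandas 2.3.3, numpy 2.4.6 and matplotlib 3.10.9.

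Members named are the 8 largest called rises and falls per comparison and the highest-mean member of each role group. Other members singled out for their values are marked. Members and gene lists were chosen with earlier results of these data known. Pig numbers in the titles pair ESMG with squamous tissue; deviations from the group means correlated at 0.42, -0.15 and -0.17 for pigs 37, 39 and 40. Several probe sets existed for 6 members (ATP6V0A1, ATP6V1G1, SLC26A11, SLC30A8, SLC8A2 and SLC9A4). Alternatives changed the normalization, probe set rule, filter, variance model, samples and pig block.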

Additional observations from a re-analysis of the deposited data

How the results depend on the processing

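Higher calls in ESMG versus squamous tissue numbered 6 to 8 in every setting with the fold minimum, against 7 as reported. The lower calls in that comparison, 1 as reported, were 0 after cyclic loess and in the fit of only the 2 groups (11 members at an unadjusted p under 0.05 in limma in each), 3 with array weights, 4 with no fold minimum, and 0 to 3 when 1 array was left out. With pig as a replicate block they were 7 higher and 1 lower, so the paired fit changed no call. In spheroids versus ESMG, 6 higher and 7 lower as reported, cyclic loess gave 11 lower, dropping the fold minimum gave 18 higher and 18 lower, and leaving out 1 array gave 6 to 8 higher and 6 to 10 lower. In spheroids versus squamous tissue, 9 higher and 4 lower as reported, dropping the fold minimum gave 20 higher and 9 lower, and leaving out 1 array gave 8 to 10 higher and 3 to 5 lower. No named member's called difference changed sign under any setting run. With the dimmest genes left out by a filter on mean level, SLC26A7 and ATP6V1C2 were not tested. No scaling moved the median of all genes by over 0.1 (log2). Low RMA values limit the folds of these dim members, and the sources used here do not say whether spheroid and tissue arrays were processed together.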

Other observations

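Genes of iron handling, few of whose carriers were measured, were followed as well. Of 15 measured, 2 were called higher and 3 lower in spheroids than in ESMG (all genes 7.99% and 8.91%). Against squamous tissue 4 were called higher and 1 lower (all genes 8.61% and 8.05%). Whether the list differs from other genes was not tested. The STEAP family genes STEAP1 and STEAP2 were higher in both comparisons. STEAP1 lay at 7.58 in spheroids against 5.67 in ESMG (log2 1.91, SE 0.28, adjusted p = 0.000191), and STEAP2 at 8.46 against 6.91 (log2 1.55, SE 0.21, adjusted p = 0.000125). TFRC, the transferrin receptor, was lower, at 9.22 in spheroids against 10.34 in ESMG (log2 -1.12, SE 0.18, adjusted p = 0.000465), and so was STEAP4 (log2 -1.06). The ferritin light chain FTL and the duodenal reductase CYBRD1 were higher than in squamous tissue (log2 1.19 and 1.25). CP, a copper-binding ferroxidase, was higher in ESMG than in squamous tissue (log2 1.80, adjusted p = 0.00744) and lower in spheroids than in ESMG (log2 -1.86, adjusted p = 0.000755), with means of 4.77 in spheroids and 4.84 in squamous tissue, near the floor. Of 6 measured genes of zinc and copper handling, COX17, the copper chaperone of mitochondria, was higher in spheroids than in squamous tissue (log2 1.13, adjusted p = 8.92e-05).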
